A study of Mus musculus with 12 samples.

Results

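The cytosolic ribosomal protein genes encode the proteins of the cytoplasmic ribosome. They were chosen by symbol: Rpl or Rps followed by a number and at most one of a, l, x, y or l1, together with Rpsa, Rplp0, Rplp1 and Rplp2. Of the 22180 genes represented by a probe with a single symbol, 66 met the rule. They comprised 22 small subunit genes, 32 large subunit genes, the 3 genes of the ribosomal stalk (Rplp0, Rplp1 and Rplp2) and 9 genes whose symbol ends in l or l1, most of them named as relatives of another ribosomal protein gene. The rule uses the symbol alone but was set with earlier results of these data known, and where a gene had several probes the one with the highest mean was taken. A further 12 symbols that meet the rule, among them Rpl10, Rpl13a and Rps2, lay only on probes shared with other symbols and are not among the 66. RefSeq lists 64 of the 66 as protein-coding. Another 7 protein-coding symbols that meet the rule were on no probe.

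RNA from whole lung of 12 female mice aged 10 weeks was measured on 12 one-colour arrays. Of the 4 groups of 3 mice, 2 were wild type and 2 were Zmpste24-/-, lacking the protease that completes the processing of prelamin A to lamin A, a protein of the nuclear envelope. Loss of this enzyme in the mouse is widely used as a model of accelerated ageing. In each genotype, 3 mice were left intact (baseline) and 3 were mechanically ventilated over 2.5 h with room air (oxygen fraction 0.21), 100 breaths a minute, an inspiratory pressure of 15 cmH2O and no positive pressure at the end of expiration. The labels call the mice biological replicates, name no Cre, transgene or second allele, and do not give the genetic background of either genotype.

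Each ribosome joins a small subunit, which reads the messenger RNA, to a large subunit, which forms the peptide bond. Their proteins are made in similar amounts, and most of their mRNAs begin with a cytosine followed by a run of pyrimidines, the terminal oligopyrimidine (TOP) element, through which mTOR signalling and the protein Larp1 control their translation. Translation factors share the element. Lung holds many cell types, and in such bulk tissue fewer cells of a type and less RNA per cell cannot be told apart.

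The targeted gene fitted the labels: Zmpste24 ranged from 8.50 to 9.28 on the log2 scale over the 6 wild type arrays and from 5.01 to 5.91 over the 6 Zmpste24-/- arrays. All 12 defining lung markers were well expressed, with mean levels over the list of 11.01 to 11.23 on the single arrays, and the surfactant gene Sftpc was at 13.02 or more on every array. The second wild type baseline array stood apart in liver transcripts, with albumin (Alb) at 11.52 against 8.12 and 9.18 on the other two of its group and 6.04 to 6.39 in Zmpste24-/- baseline lungs.

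The promoters of these genes were searched for pyrimidine runs near the annotated start, which need not be the TOP element itself. RefSeq promoter entries (build GRCm38.p6) were found for 51 of the 66 genes. A run was counted where, on the transcript strand and within 20 bases before to 20 bases after any annotated start of the gene, a C was followed by at least 6 bases that were each C or T. Such a run was present in 30 of the 51 (58.8%), against 21.4% of all 27025 genes in the promoter table, 61.5% of 13 other TOP genes and 20.3% of 69 mitochondrial ribosomal protein genes. A match describes letters and is not evidence of a working element, and no match says only that the letters are not in this window. The windows below belong to 6 genes that the results turn on, with and without a run, to Rpl28, which has a run and did not pass any test, and to Rpl7l1, which has none. Each is 40 bases long and written 5′ to 3′ on the transcript strand, with the run in capitals.
Rpl38 (chr11:114668560-114668599, plus strand): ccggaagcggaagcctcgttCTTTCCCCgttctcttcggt
Rpl14 (chr9:120571497-120571536, plus strand): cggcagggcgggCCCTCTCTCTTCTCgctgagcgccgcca
Rps24 (chr14:24490658-24490697, plus strand, one of its annotated starts): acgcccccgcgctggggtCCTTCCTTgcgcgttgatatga
Rps10 (chr17:27635225-27635264, minus strand): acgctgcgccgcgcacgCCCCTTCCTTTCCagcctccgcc
Rpl28 (chr7:4792945-4792984, plus strand): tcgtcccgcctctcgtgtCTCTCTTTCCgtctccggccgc
Rps13 (chr7:116334171-116334210, minus strand): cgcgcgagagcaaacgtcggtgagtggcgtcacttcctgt
Rpsa (chr9:120127746-120127785, plus strand): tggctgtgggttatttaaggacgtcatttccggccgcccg
Rpl7l1 (chr17:46782637-46782676, minus strand): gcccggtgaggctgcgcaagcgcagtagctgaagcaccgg

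On the arrays, the mean level of the 66 genes over all 12 arrays ran from 3.64 for Rpl32l to 12.58 for Rpl21, with a median of 8.18 against 6.05 over all genes. The 3 highest were Rpl21, Rpl28 (11.97) and Rps6 (11.79), the last being the small subunit protein phosphorylated by S6 kinase. Rpl32l, Rpl10l (3.69) and Rps15 (4.35) were the lowest. In all, 31 of the 66 lay in the upper decile of all genes (8.79 or more) and 22 lay under the median of all genes. Values of different probes are not on one scale, so a low value does not show that an mRNA is scarce. These genes also have many near-identical processed copies in the genome, and how far the probes bind such copies was not examined here. Rpl23a, Rps12 and Rps19 each had probes with identical values on all arrays, of which 1 represented the gene.

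Zmpste24-/- lungs had higher levels of many ribosomal protein mRNAs than wild type lungs at baseline. The mean over the 66 genes was 7.88, 7.87 and 7.96 on the wild type baseline arrays and 8.09, 8.16 and 8.12 on the Zmpste24-/- baseline arrays, and the groups did not overlap. At an adjusted p under 0.05 (limma, Benjamini-Hochberg over all genes), 22 of the 66 were higher and 2 were lower in Zmpste24-/- lungs. Over all genes, 2.2% were higher and 4.11% lower (6.31% in all). The median log2 difference, Zmpste24-/- minus wild type, was 0.23 over the 66 genes and -0.011 over all genes. The 3 arrays of each group were fully apart, with Zmpste24-/- higher, for 39 of the 66 (59.1%, against 9.67% of all genes).

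Other measures moved with genotype in the same baseline arrays. B cell markers were lower in Zmpste24-/- lungs for 7 of 9, with list means of 7.36 to 7.92 on the wild type arrays and 6.68 to 7.08 on the Zmpste24-/- arrays. T and NK cell markers were lower for 8 of 11 (6.88 to 7.09 against 5.94 to 6.24), liver transcripts were lower for 4 of 7 (5.44 to 7.61 against 4.33 to 4.49), and neutrophil markers were higher for 1 of 10 (6.17 to 6.87 against 6.52 to 7.27). Of 9 red cell markers listed, 7 were not measured. By limma 0 of the 2 measured passed at baseline (0 at an unadjusted p under 0.05) and 0 of 2 under ventilation (1). Under ventilation the arrays of both were apart, with Zmpste24-/- higher (14.8% of all genes) and a median difference of 0.45. Small nucleolar RNAs were higher for 38 of 81, among them 7 of the 12 encoded inside the 66 genes. The part of these measures in the ribosomal protein result was not tested.

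**Figure D1:**
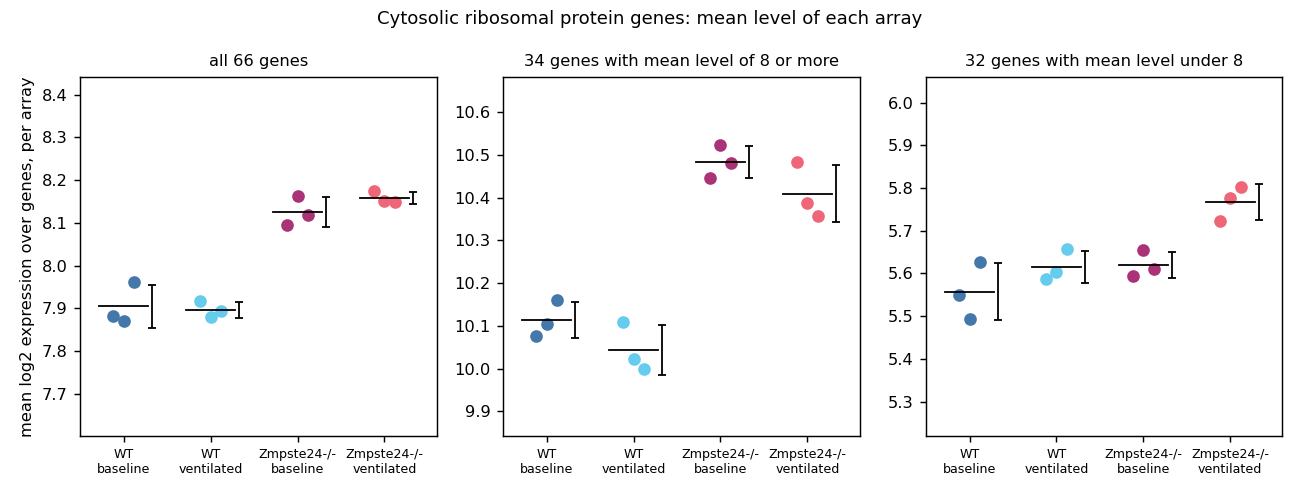
Mean log2 level over genes on each array (points), with the group mean (line) and SD (bar, n = 3), for all 66 ribosomal protein genes, the 34 with a mean level of 8 or more and the 32 under 8. For all 66, the 6 Zmpste24-/- arrays sit between 8.09 and 8.18 and the 6 wild type arrays between 7.87 and 7.96.

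The small subunit held 12 of the 22 genes that were higher at baseline, out of 22 measured, with a median difference of 0.39. Rps19, a protein needed for maturation of the small subunit RNA and mutated in Diamond-Blackfan anaemia, read 8.74, 8.59 and 8.73 on the wild type baseline arrays and 9.43, 9.62 and 9.58 on the Zmpste24-/- baseline arrays. The difference was 0.86 ± 0.08 (SE), a 1.81-fold higher level, with an adjusted p of 0.000156. Every Zmpste24-/- array was above every wild type array.

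Rps13 read 7.21, 7.32 and 6.77 in wild type and 7.82, 8.19 and 8.23 in Zmpste24-/- baseline lungs. Its difference of 0.98 ± 0.15 (adjusted p = 0.00224) was the largest rise among the 66. Rps24, another gene mutated in Diamond-Blackfan anaemia, read 8.70, 9.09 and 8.89 against 9.57, 9.70 and 9.60, a difference of 0.73 ± 0.11 (adjusted p = 0.00189). It has 3 probes. With their mean in place of the brightest probe the adjusted p was 0.15, and the dimmest, at a mean level of 5.51, differed by -0.34 ± 0.25. Rps4x, the X-linked small subunit gene, read 10.13, 10.04 and 9.91 against 10.43, 10.45 and 10.47, a difference of 0.43 ± 0.08 (adjusted p = 0.00673). None of the 4 genes overlapped between the groups. The other 8 higher small subunit genes were Rps10, Rps12, Rps18, Rps20, Rps26, Rps28, Rps29 and Rpsa, with differences from 0.38 (Rps29) to 0.70 (Rps18).

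Both genes that were lower at baseline belonged to the small subunit. Rps23, which lies at the decoding centre, read 6.93, 6.83 and 7.16 in wild type and 6.45, 6.51 and 6.69 in Zmpste24-/- lungs, a difference of -0.42 ± 0.11 (adjusted p = 0.0319). Rps14, the gene whose loss on one allele contributes to a human myelodysplastic syndrome, read 5.80, 5.67 and 5.94 against 5.28, 5.59 and 5.33, a difference of -0.40 ± 0.11 (adjusted p = 0.0499). Their arrays did not overlap, but the adjusted p was 0.0693 for Rps23 and 0.111 for Rps14 when arrays were centred on the upper decile of genes.

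Of the 32 large subunit genes 10 were higher at baseline and none lower, with a median difference of 0.21. Rpl38, required in the mouse embryo for translation of a set of Hox mRNAs, read 10.79, 10.81 and 10.95 in wild type and 11.35, 11.45 and 11.29 in Zmpste24-/- lungs, a difference of 0.52 ± 0.10 (adjusted p = 0.00705). Rpl7 read 9.18, 9.66 and 9.45 against 9.89, 9.94 and 10.02, a difference of 0.52 ± 0.11 (adjusted p = 0.0133). Rpl27 read 9.22, 9.13 and 9.28 against 9.50, 9.70 and 9.70, a difference of 0.42 ± 0.09 (adjusted p = 0.0129). The groups were apart for all 3, though with the mean of all probes of a gene the adjusted p was 0.12 for Rpl7 and 0.184 for Rpl27. Rpl23a, whose protein lies at the exit of the peptide tunnel, differed by 0.58 ± 0.12 (adjusted p = 0.0136). The remaining 6 were Rpl8, Rpl10a, Rpl14, Rpl19, Rpl35 and Rpl41, with differences from 0.33 (Rpl8) to 0.52 (Rpl35).

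None of the 3 stalk genes and none of the 9 genes with l or l1 passed the limma test at baseline; 1 of each had an unadjusted p under 0.05, and the median differences were 0.19 and 0.064. Rplp0, the base of the stalk, Rplp1 and Rplp2, which bind it as dimers and recruit elongation factors, differed by 0.26 ± 0.10, 0.19 ± 0.10 and -0.074 ± 0.16.

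**Figure D2:**
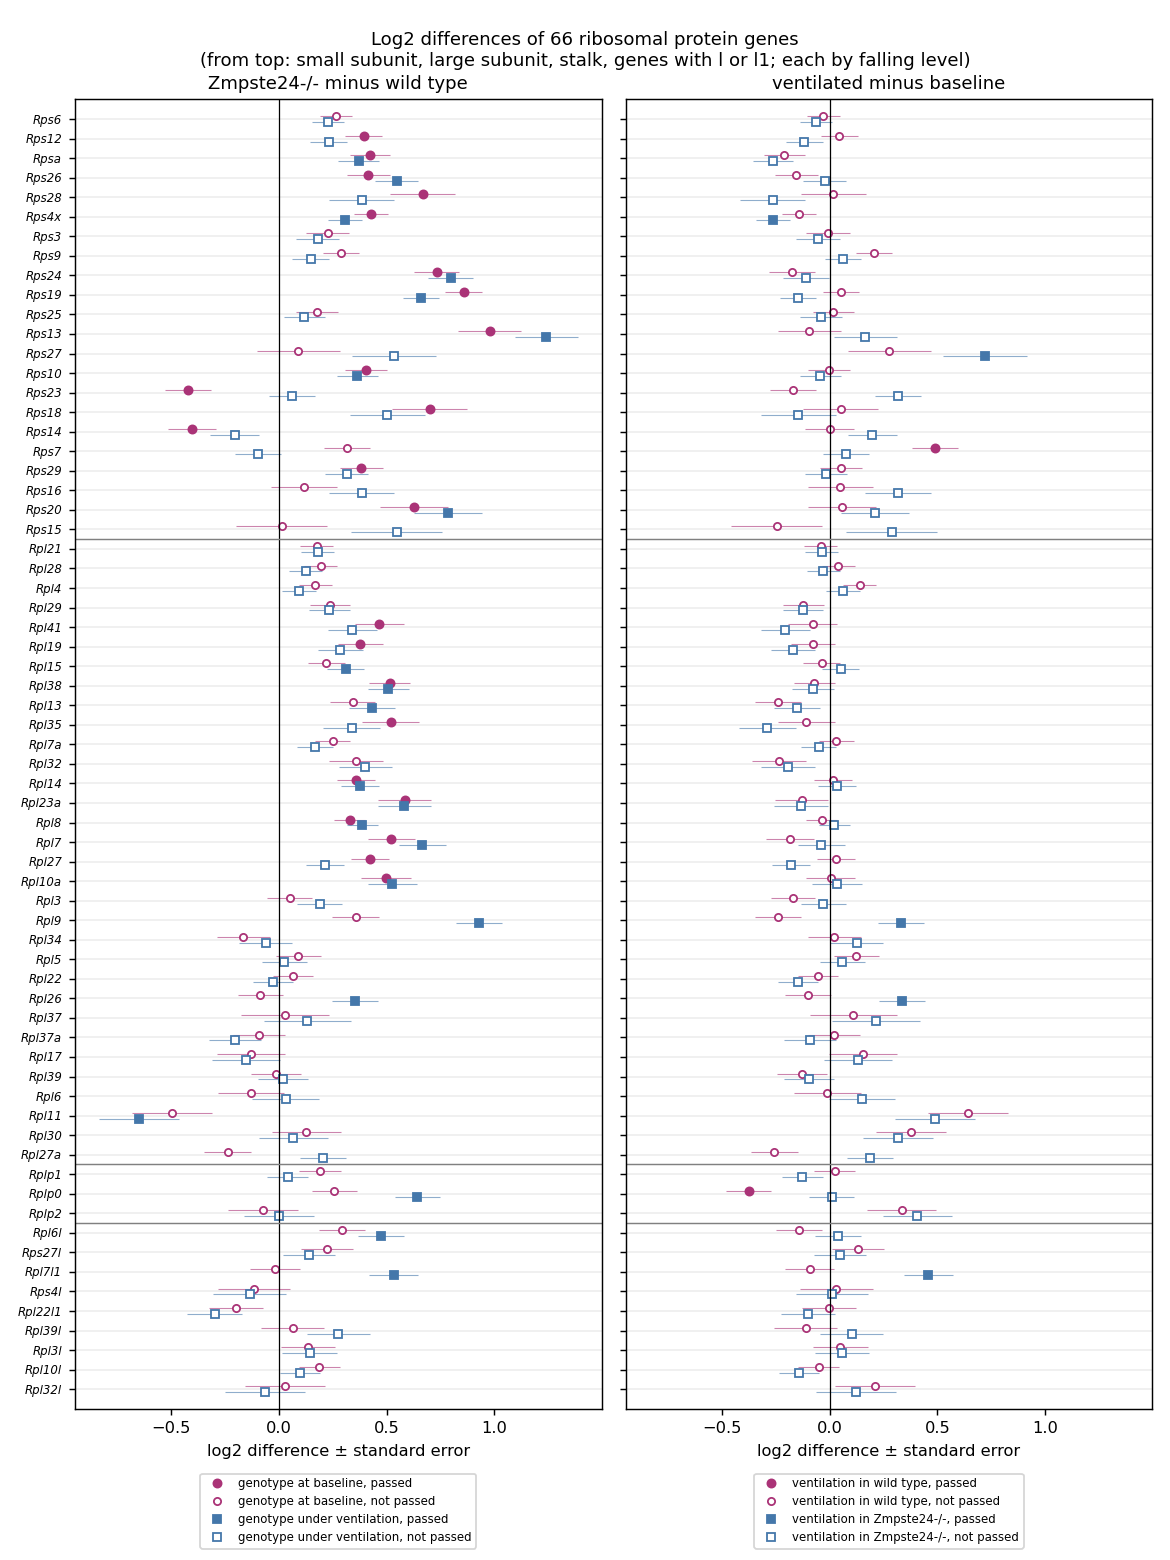
Log2 difference and standard error of each of the 66 genes, Zmpste24-/- minus wild type (left) and ventilated minus baseline (right), with filled symbols where the adjusted p was under 0.05. On the left 22 and 21 genes are filled to the right of 0 at baseline and under ventilation, and on the right at most 4 in either genotype.

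The genes were also split by their mean probe value, as a description. Among the 34 genes with a mean level of 8 or more, all 34 estimates at baseline were above 0, 17 passed as higher, and the arrays of the groups were apart for 32. Of the 4320 genes of all kinds at that level 5.0% were higher, and 14.3% had the arrays of the groups apart with Zmpste24-/- higher. Among the 32 genes under 8, 5 were higher and 2 lower (2.2% and 4.11% of all genes at any level). The median difference was 0.028 against 0.36 in those at 8 or more, although Rps13, with the largest difference, was among those under 8. This split was made after the levels had been seen, and since values of different probes are not on one scale it shows no relation to mRNA abundance.

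The count at baseline depended on single arrays, although the median did not. With all arrays 24 genes were past the threshold. The total was 12 without the first wild type baseline array and 12 without the second (the one with liver transcripts). It was 15 without the first Zmpste24-/- baseline array, 13 without the second and 7 without the third. Over the 6 such omissions the median difference stayed between 0.21 and 0.29. Rps19, Rps13, Rpl38 and Rps4x passed under every setting that was run, with differences of 0.70 to 0.91 for Rps19 and 0.81 to 1.11 for Rps13. However, Rps13, Rpl38 and Rps4x have 1 probe each, so the mean of all probes leaves their values unchanged and does not test them. Of the 3 Rps19 probes, 1 has the same values as another.

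Ventilated Zmpste24-/- lungs also had higher levels than ventilated wild type lungs. The mean over the 66 genes was 7.92, 7.88 and 7.89 in wild type and 8.18, 8.15 and 8.15 in Zmpste24-/- ventilated lungs. Here 21 genes were higher and 1 was lower, against 4.72% higher and 6.08% lower over all genes, and the median difference was 0.23 against 0.0055. The arrays were fully apart, with Zmpste24-/- higher, for 39 of the 66 (14.8% of all genes). These 6 arrays are not those of the baseline comparison.

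B cell markers were lower for 9 of 9 in ventilated Zmpste24-/- lungs (list means of 6.98 to 7.53 on wild type and 6.14 to 6.46 on Zmpste24-/- arrays) and T and NK cell markers for 9 of 11 (6.48 to 6.68 against 5.79 to 5.85). Neutrophil markers were higher for 7 of 10 (7.13 to 7.66 against 8.36 to 8.52). By limma, 0 of 7 liver transcripts passed (1 at an unadjusted p under 0.05), with means of 4.53 to 5.61 against 4.42 to 4.54. Small nucleolar RNAs were higher for 25 of 81, with 5 of the 12 inside the 66 genes. Here too their part in the result was not tested.

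In the small subunit 8 of 22 were higher. Rps13 read 6.85, 7.22 and 6.96 in wild type and 8.20, 8.24 and 8.30 in Zmpste24-/- ventilated lungs, a difference of 1.24 ± 0.15 (adjusted p = 0.000275) and a 2.36-fold higher level. Rps19 read 8.81, 8.71 and 8.69 against 9.48, 9.31 and 9.40, a difference of 0.66 ± 0.08 (adjusted p = 0.000434). Rps24 read 8.83, 8.73 and 8.60 against 9.65, 9.48 and 9.42, a difference of 0.80 ± 0.11 (adjusted p = 0.000542). No array of one genotype reached those of the other for these 3 genes. The other probes of Rps24, at mean levels of 8.79 and 5.51, differed by 0.68 ± 0.11 and 0.23 ± 0.25. Rps26, also mutated in Diamond-Blackfan anaemia, differed by 0.55 ± 0.10 (adjusted p = 0.00355), and Rps4x, Rps10, Rps20 and Rpsa by 0.31 to 0.78.

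In the large subunit 10 of 32 were higher. Rpl9 read 7.75, 7.94 and 7.55 in wild type and 8.75, 8.73 and 8.55 in Zmpste24-/- ventilated lungs, a difference of 0.93 ± 0.11 (adjusted p = 0.00025). Its other probe, at a mean level of 5.61, differed by 0.15 ± 0.11. Rpl7 differed by 0.67 ± 0.11 (adjusted p = 0.0021) and Rpl8, near the peptidyl transferase centre, by 0.39 ± 0.07 (adjusted p = 0.00385). The other Rpl7 probe, at a mean level of 4.89, differed by 0.11 ± 0.11. The other 7 were Rpl10a, Rpl13, Rpl14, Rpl15, Rpl23a, Rpl26 and Rpl38, with differences from 0.31 (Rpl15) to 0.58 (Rpl23a). The lower gene was Rpl11, whose protein binds and inhibits Mdm2 when ribosome assembly fails. It read 5.74, 5.77 and 5.99 against 4.68, 5.21 and 5.66, a difference of -0.65 ± 0.19 (adjusted p = 0.0389). Its arrays did not overlap, but the adjusted p was 0.0568 after subtraction of array medians.

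Of the stalk genes, Rplp0 passed: it read 8.08, 7.87 and 7.75 in wild type and 8.67, 8.44 and 8.51 in Zmpste24-/- ventilated lungs, a difference of 0.64 ± 0.10 (adjusted p = 0.00191), and the groups did not overlap. Its other probe, at a mean level of 6.03, differed by 0.14 ± 0.11. Rplp1 and Rplp2 differed by 0.041 ± 0.10 and -0.0004 ± 0.16. Rpl7l1 (0.53 ± 0.11, adjusted p = 0.00936) and Rpl6l (0.47 ± 0.11, adjusted p = 0.0129) were the 2 of 9 genes with l or l1 that were higher.

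Of the 34 genes with a mean level of 8 or more, all had estimates above 0 under ventilation too, and 16 passed as higher (11.5% of all genes at that level). Of the 32 genes under 8, 5 were higher (4.72% of all genes at any level). The total of 22 past the threshold fell to 14 without the third wild type ventilated array or without the first Zmpste24-/- ventilated array. Centred on the upper decile of genes, 15 were higher and 1 lower, while all genes split into 741 higher (3.34%) and 2093 lower in place of 1046 and 1349. After subtraction of array medians 27 were higher and none lower, beside 1587 and 987 over all genes.

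The genotype comparisons in intact and in ventilated lungs share no array, but they come from the same fit with a common estimate of spread for each gene. Passing in both is therefore not an independent repeat. In all, 14 of the 66 genes were higher in both (21.2%, against 0.897% of all genes). They were Rpl7, Rpl8, Rpl10a, Rpl14, Rpl23a and Rpl38 of the large subunit and Rps4x, Rps10, Rps13, Rps19, Rps20, Rps24, Rps26 and Rpsa of the small. That is 63.6% of those higher at baseline and 66.7% of those higher under ventilation, against 40.8% and 19.0% over all genes. The other probes of Rps20 (mean level 4.55), Rpsa (6.73), Rps26 (3.38) and Rpl7 (4.89) differed by 0.095, -0.0051, 0.034 and 0.050 at baseline. Under ventilation they differed by 0.10, -0.079, 0.0001 and 0.11. The Rps19 probe at 5.74 differed by 0.39 in each condition. Of the other Rps24 probes, that at 8.79 differed by 0.61 and 0.68 and that at 5.51 by -0.34 and 0.23. All 6 Zmpste24-/- arrays were above all 6 wild type arrays for 25 of the 66 genes (37.9%, against 1.75% of all genes). Across the 66 genes the differences in the 2 conditions had a Pearson r of 0.76 and a Spearman rho of 0.72, against 0.50 and 0.44 across all genes. These are descriptions, since genes of one array are not independent. With both conditions averaged in the same fit, 34 genes were higher and 2 lower (6.64% and 10.2% of all genes). Among the higher were 28 of the 34 genes at 8 or more, against 14.0% of all genes at that level. Rps6, at 0.25 ± 0.05 (adjusted p = 0.00603), passed there and in neither condition alone. This average was added after the separate comparisons had been seen.

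**Figure D3:**
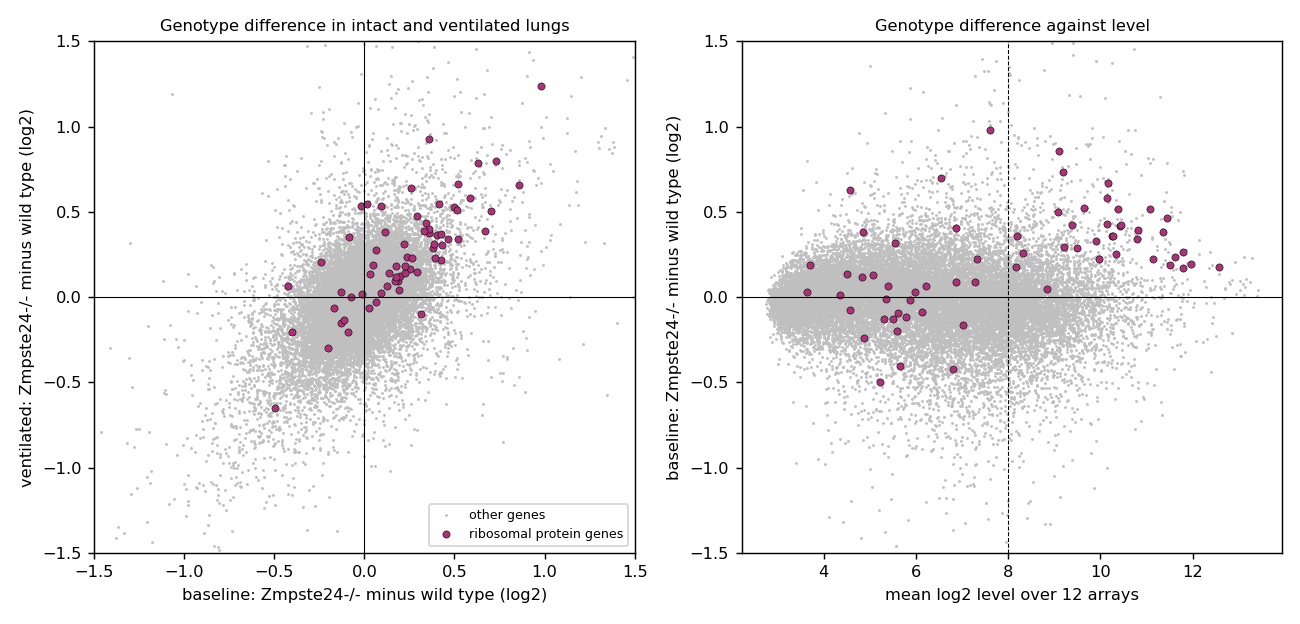
Left: Zmpste24-/- minus wild type in baseline (x) and ventilated (y) lungs, log2, for the 66 ribosomal protein genes over all other genes (grey). Right: the baseline difference against the mean log2 level, with a dashed line at 8. Points beyond 1.5 in either direction are outside the plot; all 34 ribosomal protein genes to the right of the line lie above 0.

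Genes with and without the pyrimidine run were set side by side, with no test. At baseline 11 of 30 genes with a run were higher (median difference 0.24) and 6 of 21 without one (0.19). Under ventilation these were 9 of 30 (0.25) and 7 of 21 (0.21). As the windows above show, genes that were higher in both conditions included Rpl38, Rpl14 and Rps10 with a run and Rps13 and Rpsa without.

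Ventilation for 2.5 h moved few ribosomal protein mRNAs. In wild type lungs 1 gene was higher and 1 lower (3.67% and 3.53% of all genes, 7.2% together), and the median difference, ventilated minus baseline, was -0.0053 over the 66 genes and -0.013 over all genes. Rps7 read 5.24, 5.10 and 5.38 at baseline and 5.76, 5.56 and 5.87 after ventilation, a difference of 0.49 ± 0.11 (adjusted p = 0.014). Rplp0 fell from 8.15, 8.31 and 8.37 to 8.08, 7.87 and 7.75, a difference of -0.38 ± 0.10 (adjusted p = 0.045). The arrays of both genes were apart. With the mean of its probes the adjusted p for Rplp0 was 0.664. No gene passed without the second wild type baseline array or without the third ventilated one, and 1 without the third baseline array or the second ventilated one.

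In Zmpste24-/- lungs 4 genes were higher and 1 was lower after ventilation (8.89% and 7.52% of all genes, 16.4% together), with a median difference of -0.0025 against -0.0074. Rps27 read 7.41, 7.30 and 6.54 at baseline and 7.49, 8.06 and 7.85 after ventilation, a difference of 0.72 ± 0.19 (adjusted p = 0.0204), with the lowest ventilated array above the highest baseline one. Rpl7l1 read 5.71, 5.84 and 5.77 against 6.16, 6.39 and 6.14, a difference of 0.46 ± 0.11 (adjusted p = 0.0137). Rpl26 rose by 0.34 ± 0.11 (adjusted p = 0.0444) and Rpl9 by 0.33 ± 0.11 (adjusted p = 0.0489), and Rps4x differed by -0.26 ± 0.08 (adjusted p = 0.0365). The count rested on single arrays: none passed without the second ventilated array, 2 without the second baseline array, the third baseline array or the third ventilated array, and 3 without the first baseline array.

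No gene passed the interaction test, which asks whether the effect of ventilation differed between the genotypes. In the limma fit 7 of the 66 had an unadjusted p under 0.05, against 2598 of all 22180 genes, of which 59 passed as higher (0.266%) and 11 as lower (0.0496%), 0.316% together. The smallest p-values were those of Rpl9 (0.57 ± 0.15, adjusted p = 0.135), Rpl7l1 (0.55 ± 0.16, adjusted p = 0.175), Rps23, Rpl26, Rpl27a and Rps7 (-0.41 ± 0.15, adjusted p = 0.284). With the first wild type baseline array left out, Rpl26 passed, at 0.59 (adjusted p = 0.0365). The genotype difference was therefore not shown to depend on ventilation for any of these genes.

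The genes with l or l1 did not follow their namesakes in every case. Rps4x was higher in Zmpste24-/- lungs in both conditions, while Rps4l differed by -0.11 and -0.14. Rpl32 (0.36 and 0.40) and Rpl32l (0.027 and -0.064) passed in neither condition. Rpl7 was higher in both conditions, whereas Rpl7l1 differed by -0.018 at baseline and passed under ventilation. Rpl6l passed under ventilation and Rpl6 differed by 0.032 there. Rpl3l, a relative of Rpl3 found in striated muscle, differed by 0.14 in each condition, against 0.050 and 0.19 for Rpl3. Rpl22l1 differed by -0.20 and -0.30 and Rpl22 by 0.066 and -0.027, Rpl39l by 0.064 and 0.28 and Rpl39 by -0.014 and 0.020. Rps27l and Rps27 differed by 0.23 and 0.14 and by 0.091 and 0.53. Rpl10l, whose counterpart Rpl10 was on shared probes only, differed by 0.19 and 0.097. Apart from those said to have passed, none of these passed, and no difference within a pair was tested.

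Other genes whose products serve the ribosome were compared by lists. Fau, made as a fusion of a ubiquitin-like protein and a small subunit protein, was higher in Zmpste24-/- lungs by 0.46 ± 0.10 at baseline (adjusted p = 0.0125) and, in ventilated lungs, by 0.38 ± 0.10 (adjusted p = 0.0199), and all its arrays were apart. Of 17 other TOP mRNA genes 5 were higher in Zmpste24-/- lungs at baseline (Eif3e, Eif3f, Eif3h, Eif3k and Npm1) and 5 under ventilation (Eif3e, Eif3k, Btf3, Npm1 and Nap1l1), with none lower and medians of 0.19 and 0.21. Over all genes 2.2% and 4.72% were higher. After ventilation 0 of them passed the limma test in wild type lungs (1 at an unadjusted p under 0.05) and 1 in Zmpste24-/- lungs, Pabpc1 (0.49 ± 0.09, adjusted p = 0.00278). Mitochondrial ribosomal proteins, 71 in number, gave 3 higher and 1 lower at baseline and 3 higher and 0 lower under ventilation, with medians of 0.050 and 0.010. The 4.23% that were higher in each condition lay above the share of all genes at baseline and below it under ventilation.

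Some genes for ribosome assembly and translation initiation rose with ventilation, against 3.67% of all genes in wild type and 8.89% in Zmpste24-/- lungs. Of 48 genes for rRNA synthesis and ribosome assembly, 10 were higher and 1 lower after ventilation in wild type lungs and 26 higher and 1 lower in Zmpste24-/- lungs, with medians of 0.21 and 0.36. For genotype, 0 passed the limma test at baseline (5 at an unadjusted p under 0.05) and 6 were higher in Zmpste24-/- lungs under ventilation (12.5%, against 4.72% of all genes). Gnl3, a nucleolar GTPase, rose by 0.78 ± 0.13 in wild type (adjusted p = 0.00247) and by 1.45 ± 0.13 in Zmpste24-/- lungs (adjusted p = 7.56e-06), and Utp4, a small subunit processome protein, by 0.48 ± 0.09 and 1.18 ± 0.09. Utp4 was the 1 gene of the 48 to pass the interaction test (0.70 ± 0.13, adjusted p = 0.0472). Of 16 further initiation factors, 6 were higher after ventilation in wild type and 12 in Zmpste24-/- lungs, with none lower and 10 and 4 not past the threshold. Eif5, which promotes GTP hydrolysis during start codon recognition, rose by 0.66 ± 0.10 and 1.01 ± 0.10. At baseline 0 of the 16 passed the limma test for genotype (4 at an unadjusted p under 0.05), and 7 were higher in Zmpste24-/- lungs under ventilation (43.8%, against 4.72% of all genes). Neutrophil markers were higher after ventilation for 5 of 10 in wild type and 9 of 10 in Zmpste24-/- lungs, and their part in these changes was not tested, nor was the difference between lists.

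Of the 14 genes of mTOR and TOP control, 1 was higher and 0 lower after ventilation in wild type lungs and 3 were higher and 1 lower in Zmpste24-/- lungs, with medians of 0.024 and 0.15. Over all genes 3.67% were higher and 3.53% lower in wild type lungs, and 8.89% and 7.52% in Zmpste24-/- lungs. In a list of 14, 1 gene is 7.14%. Sesn2, a stress-induced inhibitor of mTORC1, rose by 1.15 ± 0.16 and 1.86 ± 0.16. In Zmpste24-/- lungs Rheb, the activator of mTORC1, rose by 0.50 ± 0.11 and Larp1 by 0.28 ± 0.09, while Eif4ebp2, which binds the cap-binding factor Eif4e, fell by 0.39 ± 0.12. For genotype, 0 were higher and 1 lower at baseline and 2 higher and 1 lower under ventilation, and Rptor, the mTORC1 scaffold, was the lower gene in both (-0.27 ± 0.07 and -0.26 ± 0.07). Over all genes 2.2% were higher and 4.11% lower at baseline, and 4.72% and 6.08% under ventilation. Of 8 genes of ribosome quality control and ribosomal stress, 1 was higher and 1 lower after ventilation in wild type lungs and 2 were higher and 0 lower in Zmpste24-/- lungs. In a list of 8, 1 gene is 12.5%. Mdm2 rose in both (0.39 ± 0.09 and 0.71 ± 0.09), Zfp598, which marks collided ribosomes, rose by 0.60 ± 0.10 in Zmpste24-/- lungs, and Pelo, a ribosome rescue factor, fell by 0.63 ± 0.12 in wild type lungs. Pelo was also the 1 gene of the 8 that passed for genotype at baseline (-0.52 ± 0.12). Under ventilation 0 of the 8 passed for genotype by limma, and 0 had an unadjusted p under 0.05.

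**Figure D4:**
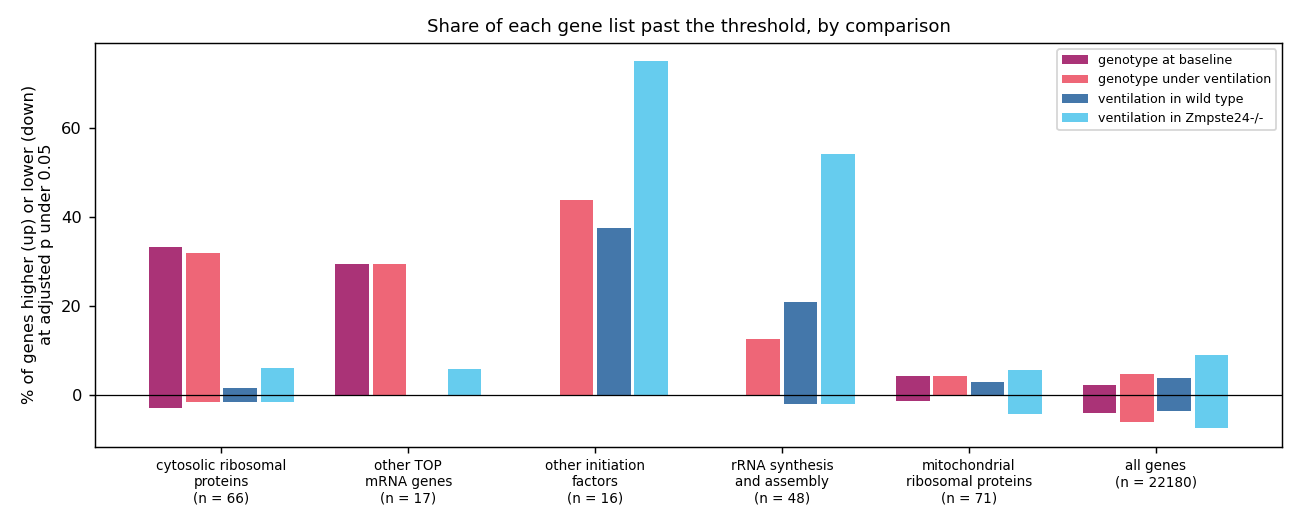
Percentage of each gene list that was higher (bars up) or lower (bars down) at an adjusted p under 0.05, for the genotype and ventilation comparisons. Ribosomal protein and other TOP genes have their tallest bars for genotype, and the assembly and initiation lists for ventilation in Zmpste24-/- lungs (54.2% and 75.0% higher).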

How the data were processed

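Lung RNA of 12 mice was hybridised to 12 one-colour arrays; the amount labelled was 100 ng, per the labels. The deposited values are normalized log2 intensities made by the authors, a scale read from their range. Per the submitters' processing notes the authors used RMA and limma. For versions and the genome build of the probes: not given in the sources used here. Of 41345 probes, 23521 had 1 symbol, 1814 several and 16010 none in the platform annotation; 23328 matched the RefSeq table by gene identifier. The 1-symbol probe with the highest mean represented each of 22180 genes.

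limma 3.58.1 in R 4.3.3 (lmFit, eBayes) was fitted to all arrays with 1 mean per group, with Benjamini-Hochberg adjustment over all genes and a threshold of 0.05. It was tested on simulated data. No value was normalized again. Two-sided p-values measure the spread between mice. Array batches were not tested. Named genes were, in each pairwise comparison, up to 8 genes in each direction with the smallest adjusted p, the 6 with the smallest interaction p, the stalk genes, the genes with l or l1 beside their namesakes, the 3 highest and 3 lowest levels, and up to 3 genes of each other list; further names complete counts and were chosen after their values were seen. Members and lists were chosen with earlier results of these data known. Plots used matplotlib 3.10.9 (Python 3.11.15).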

Additional observations from a re-analysis of the deposited data

Results flagged for a closer look

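A signal also appeared on probes that were not used in the comparisons above. Of 57 probes paired with several symbols, one of which meets the rule for ribosomal protein genes, 20 were higher and 1 was lower in Zmpste24-/- lungs at baseline when every probe was fitted with limma, against 1.87% higher over all 41345 probes. Under ventilation 21 were higher and 1 lower, against 3.2% higher. Their median differences were 0.36 and 0.31. These probes were looked at after the levels of the 66 genes had been seen, and which of their genes gave the signal cannot be told from them. Of the 66 genes, 20 are also named on probes with several symbols, so such probes can read genes already counted above. Their median level was 8.04, and the shares over all probes are not matched for level.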

How the results depend on the processing

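No result reversed. Over the settings other than leaving out an array, 740 gene results kept their call, 29 lost it and 15 gained it. With 1 array left out, 434 kept it, 47 lost it and 5 gained it. Leaving out 1 array at a time, genes past the threshold numbered 7 to 21 for genotype at baseline (median difference 0.21 to 0.29), 14 to 22 for genotype under ventilation (0.21 to 0.29), 0 to 2 for ventilation in wild type (-0.040 to -0.0068), 0 to 6 for ventilation in Zmpste24-/- (-0.027 to 0.016) and 0 to 1 for the interaction (-0.040 to 0.021). For ventilation in wild type the count was 1 without genes under the median level, after quantile normalization again, with the mean of all probes, among genes at 8 or more and among genes under 8. For ventilation in Zmpste24-/- it was 10 with array weights, 2 among genes at 8 or more and 3 under 8, where the median was 0.13. For genotype at baseline the count was 7 among genes under 8, with medians of 0.34 without genes under the median level, 0.36 at 8 or more and 0.028 under 8. For genotype under ventilation the count was 6 under 8, with medians of 0.34 without genes under the median level, 0.34 at 8 or more and 0.082 under 8. Fewer genes are counted in those subsets; for the other settings the cause was not tested. Centred on the upper decile of genes, the interaction median was -0.11, beside -0.092 over all genes. After ventilation in Zmpste24-/- lungs the split of 4 higher and 1 lower became 2 and 2 with that centring, 5 and 0 with array medians subtracted, and 4 and 2 with quantile normalization or cyclic loess. In wild type lungs 1 and 1 became 2 and 0 with that centring or cyclic loess and 1 and 0 with quantile normalization. Over all genes at baseline, 488 higher and 911 lower became 628 and 642 with that centring.

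Replicate numbers are shared between groups but did not pair the samples: same-numbered arrays deviated from their group means with correlations of -0.15 to 0.15. With the replicate block, 23 genes passed for genotype at baseline, 22 for genotype under ventilation, 5 and 2 for ventilation in Zmpste24-/- and wild type lungs, and 0 for the interaction.

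Only 3 arrays per group limit the precision, and the values carry no depth. Signal over background is not in the deposited values, so genes near background could not be told from the others.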
